A study of Mus musculus with 8 samples.

Results

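The genes described here encode regulators of G protein signalling, the RGS proteins, in MC3T3-E1 subclone 14, a mouse line of bone-forming cells used as a model of matrix mineralisation. They were chosen by symbol (Rgs2, Rgs3, Rgs4, Rgs5, Rgs10, Rgs12, Rgs14, Rgs16, Rgs17 and Rgs19) and are 10 of the 20972 genes in the authors' deposited table, or 10 of its 14 numbered Rgs genes. The choice was made with the fold changes of this comparison in view, so the values below describe these genes and support nothing further. The tested cultures received 10 µM Yoda1, a compound that opens the stretch-activated channel PIEZO1, for 24 h, and the other cultures received the solvent DMSO. The labels name 4 samples per group and leave 1 of each out of the submitters' analysis for batch variation, so 3 per group remain. Those left out were DMSO replicate 3 and Yoda1 replicate 1, so the kept replicate numbers differ between the groups. Nothing in the sample labels says that the replicates came from separate cultures, so the errors may be technical, and all samples come from a single clonal line. The series' own design text speaks of human endothelial cells, whereas the sample labels, used here, name this mouse line.

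A G protein-coupled receptor switches on a heterotrimeric G protein by loading GTP onto its alpha subunit, and an RGS protein switches it off again by speeding up GTP hydrolysis through its RGS domain. Members of the R4 subfamily are small and act mainly on Gi/o and Gq/11. Those of the RZ subfamily are small palmitoylated proteins, and RGS12 and RGS14 of the R12 subfamily are larger scaffolds that also hold a GoLoco motif, which binds inactive Gi alpha subunits. The Arg/N-degron pathway degrades proteins, and RGS4, RGS5 and RGS16 are known substrates of it through their N-terminal cysteine. Levels of these proteins thus need not follow their transcripts.

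The stretches that precede the transcription starts of Rgs16, Rgs4, Rgs5 and Rgs2 are shown because Rgs16 and Rgs4 had the largest called rise and fall among these genes, Rgs5 lies beside Rgs4, and all 4 share letters close to the start. Each is the 250 bases before the start from RefSeq, build GRCm38.p6, which is older than the GRCm39 named in the submitters' processing notes. Capitals mark CCAAT or its reverse complement ATTGG, and ATAAAAG. Rgs16 is given on the plus strand (chr1:153740103-153740352), Rgs4 on the minus strand (chr1:169747643-169747892), Rgs5 on the plus strand (chr1:169655251-169655500) and Rgs2 on the minus strand (chr1:144004150-144004399).
Rgs16: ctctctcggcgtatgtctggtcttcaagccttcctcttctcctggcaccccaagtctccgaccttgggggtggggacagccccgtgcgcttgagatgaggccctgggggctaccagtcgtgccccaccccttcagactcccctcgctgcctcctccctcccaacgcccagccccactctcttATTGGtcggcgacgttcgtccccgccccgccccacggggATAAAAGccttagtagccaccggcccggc
Rgs4: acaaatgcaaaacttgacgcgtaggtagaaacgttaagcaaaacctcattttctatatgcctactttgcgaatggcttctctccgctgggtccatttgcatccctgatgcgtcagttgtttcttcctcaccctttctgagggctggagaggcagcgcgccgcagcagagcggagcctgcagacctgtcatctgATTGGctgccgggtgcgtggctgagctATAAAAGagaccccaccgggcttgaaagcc
Rgs5: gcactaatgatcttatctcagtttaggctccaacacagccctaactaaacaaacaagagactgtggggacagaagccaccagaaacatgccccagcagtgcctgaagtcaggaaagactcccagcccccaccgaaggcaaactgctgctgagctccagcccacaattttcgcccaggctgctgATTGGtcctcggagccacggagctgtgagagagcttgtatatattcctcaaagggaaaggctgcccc
Rgs2: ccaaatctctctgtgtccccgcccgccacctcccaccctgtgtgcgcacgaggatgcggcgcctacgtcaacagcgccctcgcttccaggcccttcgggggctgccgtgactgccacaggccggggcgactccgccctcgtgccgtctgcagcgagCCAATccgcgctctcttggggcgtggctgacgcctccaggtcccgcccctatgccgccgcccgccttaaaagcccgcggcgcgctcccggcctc

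ATAAAAG began 29 bases before the start of Rgs16 and 30 bases before that of Rgs4, and CCAAT or ATTGG began 68, 57, 67 and 94 bases before the starts of Rgs16, Rgs4, Rgs5 and Rgs2. The table held windows for 9 of the 10 genes, not for Rgs14, and 13 windows in all. The windows counted leave out a chromosome that holds none of these genes. Over both strands of windows of 300 bases, which add the first 50 transcribed bases, CCAAT stood in 37.4% of all 32851 counted windows. It was in 4 of the 13 windows of these genes, from 4 of the 9 genes. ATAAAAG stood in 5.42% of all windows and in 2 of the 13, from 2 of the 9 genes. Both motifs were picked after the sequences were seen. The cAMP response element TGACGTCA was in none of the 13 windows (1.79% of all windows), and its part TGACG was in windows of Rgs2, Rgs4 and Rgs12 (20.8% of all). The AP-1 letters TGANTCA were in windows of Rgs12 and Rgs17 (7.81% of all) and the NFAT core GGAAAA in a window of Rgs19 (23.4% of all). A match describes the letters only.

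The largest differences lay in the R4 subfamily and ran in opposite directions. With Yoda1, Rgs16 rose 49.6-fold and Rgs3 rose 1.85-fold, while Rgs4 fell 4.18-fold in the authors' deposited table. Of the 10 genes, 9 had an adjusted p, and 4 of these passed an adjusted p under 0.05, with 2 higher (Rgs16 and Rgs3) and 2 lower (Rgs4 and Rgs17). Of all 14653 tested genes, 44.5% passed, 22.4% higher and 22.1% lower, and nothing is read from the comparison because the genes were chosen on it. The median log2 fold change of the 9 tested genes was 0.17, against -0.01 over all tested genes. By the authors' class, whose added condition is a log2 fold change beyond 0.5 in size, 2 were higher and 1 was lower (27.1% of tested genes held either class, 13.8% the higher and 13.3% the lower).

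**Figure D1:**
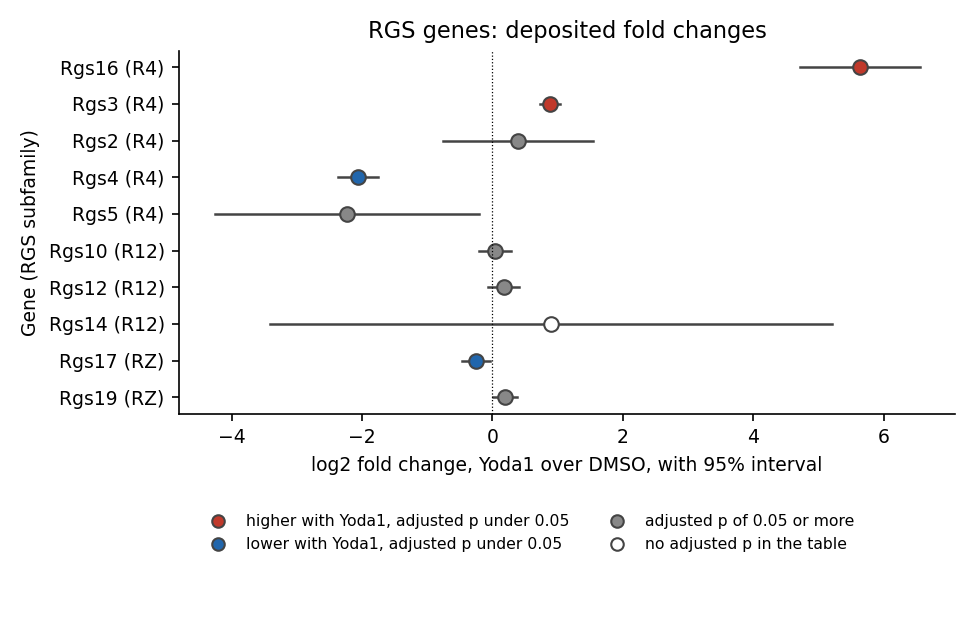
Log2 fold change of each RGS gene, Yoda1 over DMSO, on the x axis, with its 95% interval as a line, and the genes with their subfamily on the y axis. Red and blue points are genes higher and lower with Yoda1 at an adjusted p under 0.05, grey points are the others, and the white point has no adjusted p; Rgs16 stands far to the right at 5.63 and Rgs4 to the left at -2.06, while the intervals of Rgs5 and Rgs14 are wide.

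The deposited table gives a mean over both groups and no values per library. A level for each group was therefore derived from that mean and the fold change, for groups of equal size, and is a mean normalized count per library without an error of its own. Whether single libraries of the groups overlap is not given by these values. In bulk RNA, more cells that express a gene and more transcript per cell cannot be told apart.

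Rgs16, an R4 protein whose gene is known to be inducible by signalling in several cell types, had a derived level of 193 normalized counts in Yoda1 cultures and 3.88 in DMSO cultures. The log2 value was 5.63 (standard error 0.47; 95% interval of the fold 26.3 to 93.5; adjusted p = 7.7e-32 by DESeq2) in the authors' deposited table. Rgs16 thus had only a few counts per library in DMSO cultures, and its fold ranked 15 from the top among 14653 tested genes. Its mean over both groups was 98.2 normalized counts.

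Rgs3, which encodes an R4 member with long and short protein forms, had derived levels of 3566 normalized counts in Yoda1 cultures and 1931 in DMSO cultures. The authors' deposited table gave a log2 fold change of 0.89 (standard error 0.08; 95% interval of the fold 1.67 to 2.05; adjusted p = 1.07e-29 by DESeq2). The rise was small in ratio and large in counts. The annotation used for lengths, GENCODE M21, holds 8 coding transcripts of Rgs3, and which of them changed is not given by a value per gene.

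Rgs4, an R4 inhibitor of Gi/o and Gq/11 signalling, had derived levels of 134 normalized counts in Yoda1 cultures and 562 in DMSO cultures. Its log2 fold change was -2.06 (standard error 0.15; fall of 4.18-fold, 95% interval 3.38 to 5.16; adjusted p = 1.4e-38 by DESeq2) in the authors' deposited table. Its absolute Wald statistic ranked 221 among the tested genes, against 303 for Rgs16 and 340 for Rgs3.

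Rgs5, known as a pericyte marker, had derived levels of 1.72 normalized counts in Yoda1 cultures and 8.09 in DMSO cultures. Its log2 fold change of -2.24 had a standard error of 1.03 (adjusted p = 0.0659 by DESeq2) in the authors' deposited table, so it did not pass. Among 9 mural cell markers, Cspg4 and Pdgfrb, which osteoblastic cells also express, were higher (log2 fold changes 0.70 and 0.43 in the authors' deposited table), 0 were lower, and Abcc9, Kcnj8 and Higd1b had no row by symbol. The others stood at log2 fold changes of 0.20 (Notch3), -0.33 (Mcam), -0.76 (Des) and -1.56 (Myh11) and did not pass. The summed level of the list was 12042 normalized counts in Yoda1 cultures and 8310 in DMSO cultures, most of it from Cspg4 and Pdgfrb, and its part in the value of Rgs5 was not tested.

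Rgs2, a regulator with a preference for Gq/11 that parathyroid hormone is known to induce in osteoblasts, stood at 25.4 normalized counts in Yoda1 cultures and 19.4 in DMSO cultures. Its log2 fold change was 0.39 (standard error 0.59; adjusted p = 0.639 by DESeq2) in the authors' deposited table. The 95% interval of the ratio, 0.589 to 2.92, spans a fall as well as a rise, so no direction is read at this level.

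**Figure D2:**
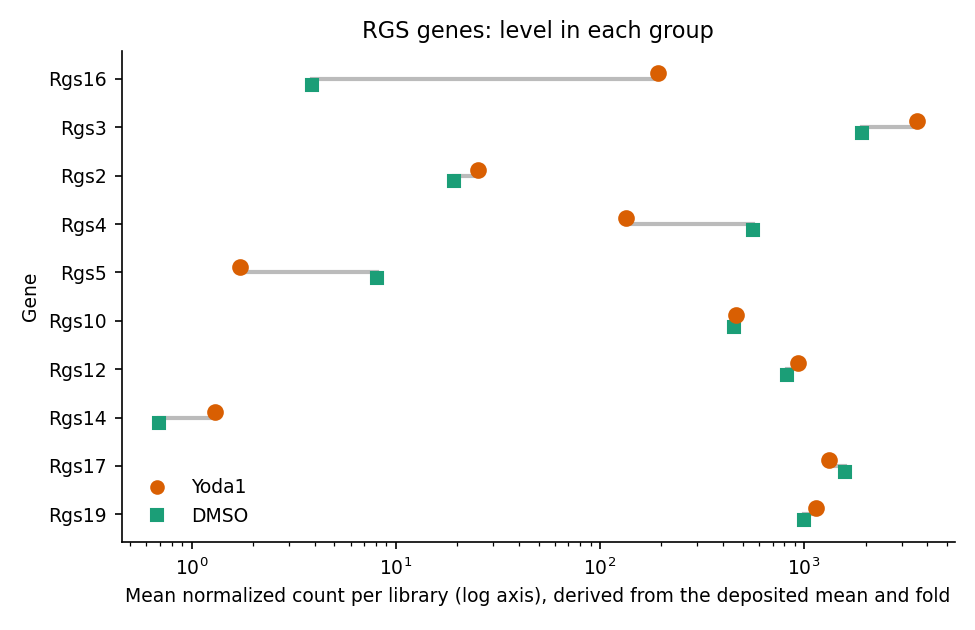
Derived mean normalized count per library of each RGS gene (x axis, log scale) in Yoda1 cultures (orange circles) and DMSO cultures (green squares), joined by a grey line for each gene on the y axis. Rgs16 lies at 193 in Yoda1 cultures and 3.88 in DMSO cultures, Rgs4 at 134 and 562 in the same order of groups, and the markers of Rgs10, Rgs12, Rgs17 and Rgs19 lie close together.

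Of the 4 tested R12 and RZ members, Rgs17 alone passed. Rgs10, a small R12 protein, had levels of 463 normalized counts in Yoda1 cultures and 451 in DMSO cultures, and its ratio had a 95% interval of 0.864 to 1.22. Rgs12, an R12 scaffold with PDZ, Ras-binding and GoLoco parts that is known to act in mouse osteoclasts, had levels of 931 in Yoda1 cultures and 826 in DMSO cultures (95% interval of the ratio 0.958 to 1.33). Neither passed the test, and each interval spans 1. Rgs14, the other GoLoco scaffold, averaged 0.995 normalized counts with no adjusted p in the authors' deposited table. Its log2 fold change of 0.90 had a standard error of 2.20 there, so no direction is read for it at this depth.

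Rgs17, an RZ protein that acts on Gz and other Gi/o alpha subunits, had levels of 1328 normalized counts in Yoda1 cultures and 1585 in DMSO cultures. It fell by 0.25 on the log2 scale (standard error 0.11; adjusted p = 0.0396 by DESeq2) in the authors' deposited table. This call lay near the threshold: it was lost with no filter on low values (adjusted p = 0.0566), with median centring (0.0547), with equal summed counts (0.265) and against a t distribution (0.175), and the range over the alternatives was 0.0342 to 1. Rgs19, the RZ protein that binds the adaptor GIPC1, had levels of 1145 in Yoda1 cultures and 1000.2 in DMSO cultures, and a log2 difference of 0.19 (standard error 0.09; adjusted p = 0.0734 by DESeq2) in the authors' deposited table. With both groups scaled to the same summed count, a shift of 0.11 in every log2 fold change that took the tested genes called to 4138 higher and 2500 lower (against 3285 and 3233 as deposited), Rgs19 passed at 0.30 (adjusted p = 0.00346) and Rgs12 at 0.28 (adjusted p = 0.0458). Over all alternatives the adjusted p of Rgs19 ran up to 1, as did that of Rgs12.

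Since the derived levels carry no error, neighbours in the order below are not shown to differ. Levels of different genes were compared per kilobase of the principal coding transcript in GENCODE M21. On that scale Rgs16 had 82.3 counts per kb and Rgs4 45.7 in Yoda1 cultures, while in DMSO cultures Rgs16 had 1.66 and Rgs4 191. The order of this pair was thus the opposite in the 2 groups, and it was the same with the longest and the shortest coding transcript of each gene. Rgs3 had the highest level per kb in Yoda1 cultures (917) and Rgs19 in DMSO cultures (662). With the shortest transcripts Rgs3 led in DMSO cultures too, so that order depends on the transcript.

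**Figure D3:**
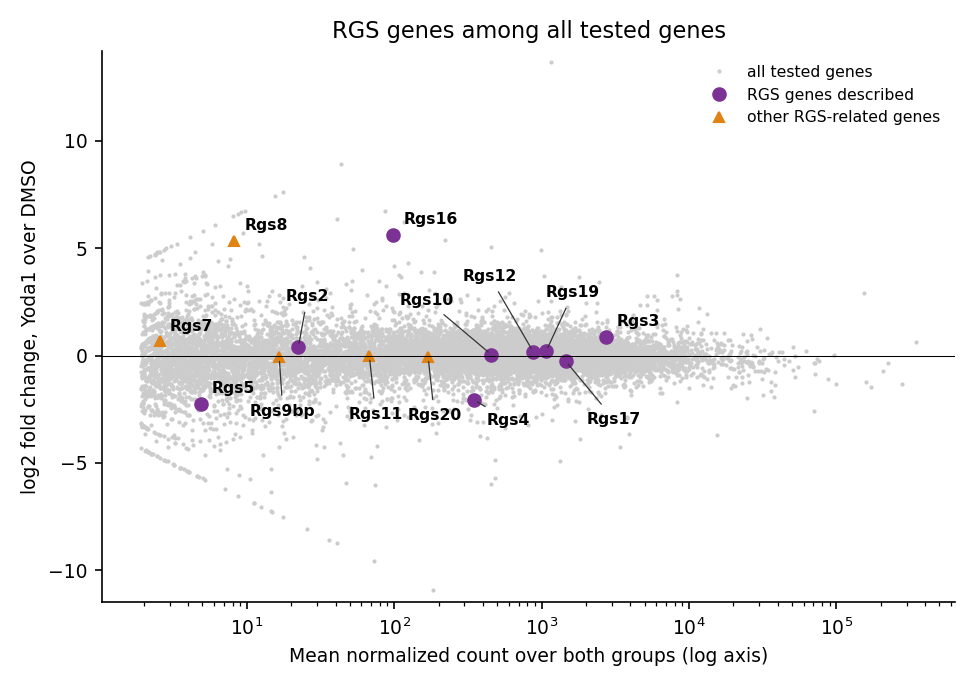
Log2 fold change, Yoda1 over DMSO (y axis), against the mean normalized count over both groups (x axis, log scale) for all 14653 tested genes (grey), the 9 tested RGS genes described here (purple circles) and 5 other tested RGS-related genes (orange triangles). Rgs16 and Rgs8 lie near 5 on the y axis, Rgs4 and Rgs5 near -2, Rgs3 at 0.89, Rgs7 at 0.67 and Rgs2 at 0.39, and the others lie closer to 0.

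Most of the other RGS genes had no row or did not pass. Of 14 such genes, which include the R7 membrane anchors, 6 had a row and 5 an adjusted p, and Rgs8 alone passed. Rgs8, an R4 gene known mainly from brain, had levels of 16.1 normalized counts in Yoda1 cultures and 0.393 in DMSO cultures, the second of these under 3 counts in all over 3 libraries. In the authors' deposited table its log2 fold change was 5.36 with a standard error of 1.36 (adjusted p = 0.00031 by DESeq2). The adjusted p ran between 0.000219 and 0.0669 under the alternatives, and the call was lost against a t distribution (adjusted p = 0.0669). Rgs20, a further RZ gene, stood at -0.08 on the log2 scale (standard error 0.18; adjusted p = 0.765 by DESeq2), and the R7 gene Rgs11 stood at -0.02 (0.29; 0.967) in the authors' deposited table, both turning to values above 0 (0.024 and 0.084) with equal summed counts.

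Several of these genes lie next to each other. In the RefSeq order of protein-coding genes on chromosome 1, Rgs8 and Rgs16 are adjacent, as are Rgs5 and Rgs4. Near the first pair, Dhx9 stood at a log2 fold change of -0.08 (standard error 0.07; adjusted p = 0.405 by DESeq2) in the authors' deposited table. Beside the second pair, the kinetochore gene Nuf2 was lower (-1.01, 0.09) and the sterol enzyme gene Hsd17b7 was lower (-0.89, 0.11), and Ddr2 stood at 0.03 (0.06; adjusted p = 0.747 by DESeq2) in the authors' deposited table. Rgs2 is followed by Rgs13 and then Rgs1, which had no row by symbol. Before Rgs2 lie Uchl5 (log2 fold change 0.39, standard error 0.15), Ro60 (0.59, 0.12) and Glrx2 (0.46, 0.15), all higher in the authors' deposited table. The remaining members, Rgs3, Rgs10, Rgs12, Rgs14, Rgs17 and Rgs19, lie on chromosomes 4, 7, 5, 13, 10 and 2.

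**Figure D4:**
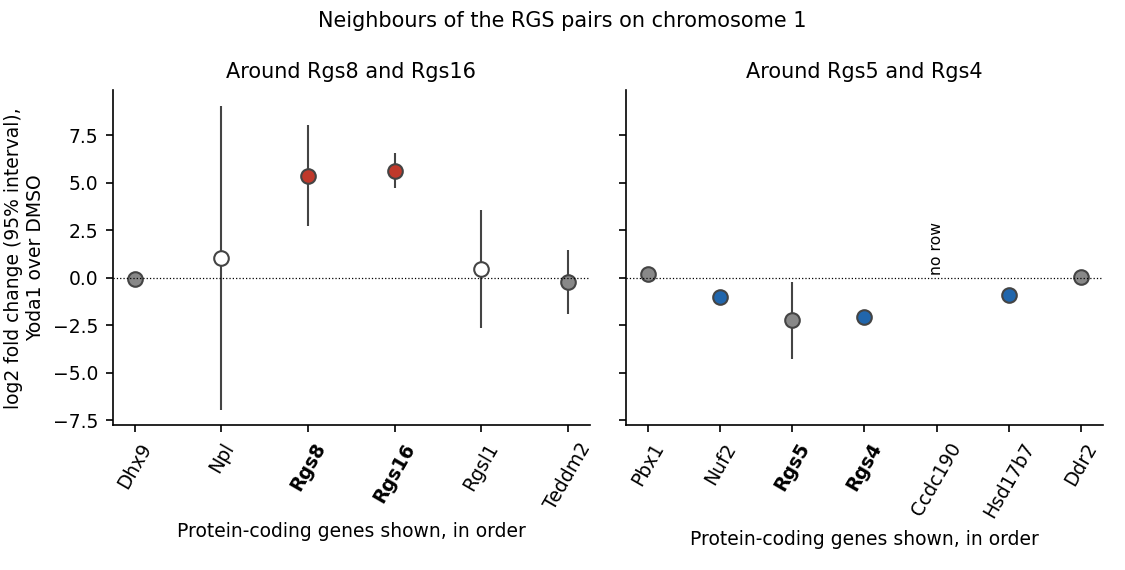
Log2 fold change, Yoda1 over DMSO, with 95% intervals (y axis) for selected protein-coding genes in chromosome order (x axis) around Rgs8 and Rgs16 (left) and around Rgs5 and Rgs4 (right). Red and blue are higher and lower with Yoda1 at an adjusted p under 0.05, grey is not called, and white has no adjusted p; Rgs8 (5.36) and Rgs16 (5.63) stand above the other genes shown, while Nuf2, Rgs4 and Hsd17b7 are all below 0.

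The genes around the RGS proteins in the same signalling step were described from 12 lists. Over these lists 45 of 91 tested genes passed, 28 higher and 17 lower, a share near the 44.5% of all tested genes, and the median log2 fold change was 0.08. The counts per list below are a description to be read beside the 22.4% of all tested genes that were higher and the 22.1% that were lower. Of 22 tested receptors, 7 were higher and 6 lower. The endothelin receptor gene Ednra fell 5.01-fold and the parathyroid hormone receptor gene Pth1r 4.1-fold, while the orphan receptor gene Gprc5a rose 3.85-fold and the chemokine scavenger receptor gene Ackr3 2.62-fold in the authors' deposited table.

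The G protein subunits follow by class. Of 4 tested Gi/o alpha genes only Gnao1 passed (log2 fold change -0.64, standard error 0.08), of 2 tested Gq/11 alpha genes, Gnaq and Gna11, 0 passed, and of 4 Gs and G12/13 genes only Gna13 passed (0.23, 0.08) in the authors' deposited table. With equal summed counts Gna11 passed as well, at 0.22 (adjusted p = 0.0272). Of 12 tested beta and gamma genes, Gng5 (log2 fold change 1.55, standard error 0.14), Gnb5 (1.26, 0.18), Gnb4 (1.22, 0.11) and Gng10 (0.78, 0.10) were higher and Gng12 (-0.43, 0.09) was lower in the authors' deposited table. Gnb5 encodes the beta subunit that R7 RGS proteins bind in place of a gamma subunit.

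Receptor kinases, which mark active receptors for arrestin binding, parted as well. Grk5 (log2 fold change 0.94, standard error 0.12) and Grk6 (0.64, 0.10) were higher and Grk3 (-0.56, 0.14) was lower in the authors' deposited table, out of 8 tested kinase and arrestin genes. Among effectors, the adenylyl cyclase genes Adcy6 (0.51, 0.09), Adcy3 (0.44, 0.09) and Adcy7 (0.44, 0.08) were higher, 3 of 4 tested, and the Gq/11-driven phospholipase C genes Plcb1 (-1.04, 0.12) and Plcb4 (-0.59, 0.13) were lower, 2 of 3 tested. Of 9 other proteins with an RGS homology domain, Arhgef1 (0.56, 0.10), Akap10 (0.37, 0.11) and Snx25 (0.30, 0.11) were higher, and the Wnt scaffold genes Axin2 (-1.95, 0.30) and Axin1 (-0.17, 0.07) with Snx13 (-0.61, 0.17) were lower in the authors' deposited table. Scaled to equal summed counts, Axin1 no longer passed, at -0.06 (adjusted p = 0.488).

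Of 10 tested chaperone and GoLoco genes, 3 were higher, namely the RGS19-binding adaptor gene Gipc1 (log2 fold change 0.51, standard error 0.11), the G alpha chaperone gene Ric8a (0.50, 0.13) and Rap1gap (0.49, 0.13), and 2 were lower, the GoLoco gene Gpsm1 (-0.75, 0.10) and Ccdc88a (-0.66, 0.13) in the authors' deposited table. Of 8 Arg/N-degron enzyme genes, 4 were higher and 1 lower. Those higher included the ubiquitin ligase genes Ubr4 (0.41, 0.12) and Ubr2 (0.26, 0.07) and the arginyltransferase gene Ate1 (0.36, 0.11), and Metap2, which removes the first methionine from some proteins, was lower (-0.81, 0.14) in the authors' deposited table. Ado, whose product oxidises the N-terminal cysteine, stood at 0.08 (0.08; adjusted p = 0.472 by DESeq2) there, and with equal summed counts at 0.18 (adjusted p = 0.04998).

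Against a t distribution with 4 degrees of freedom, 26 of the 45 genes called in these lists still passed. Those named above that did not were Rgs8, Gna13, Grk3, Plcb4, Akap10, Snx25, Axin1, Snx13, Ric8a, Rap1gap, Ubr2, Ubr4 and Ate1, and Piezo1 did not pass there either. In the test for log2 changes beyond 0.5 in size, 14 of the 45 passed. Those named above that did were Rgs8, Ednra, Pth1r, Gprc5a, Ackr3, Gng5, Gnb5, Gnb4, Grk5, Axin2 and Plcb1, so the calls of the 3 adenylyl cyclase genes were lost there, and those of Adcy3 and Adcy7 also under the authors' class.

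**Figure D5:**
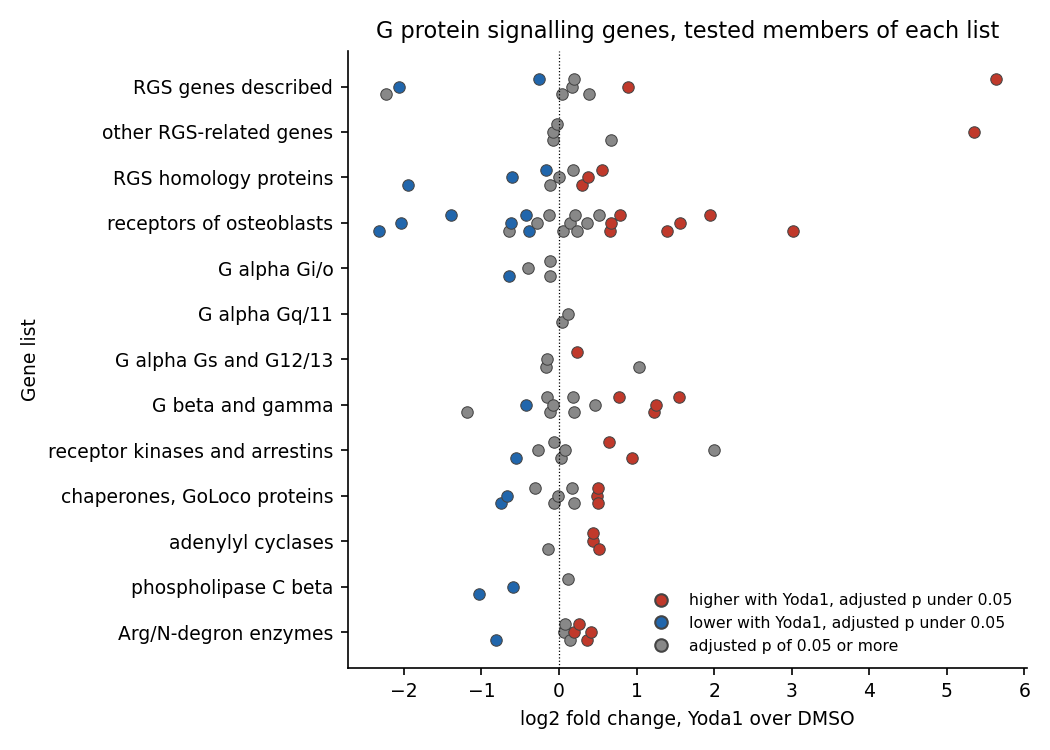
Log2 fold change, Yoda1 over DMSO (x axis), of each tested gene in the RGS genes described and 12 related lists (y axis); points are offset vertically only for legibility. Red and blue points are higher and lower with Yoda1 at an adjusted p under 0.05 and grey points are not called; the 3 called adenylyl cyclase genes lie right of 0 and the 2 called phospholipase C beta genes left of it.

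Of the 9 osteoblast markers, 7 were lower and 1 higher with Yoda1. The collagen genes Col1a1 (log2 fold change -1.45) and Col1a2 (-1.34) were lower, yet well expressed in both groups. The same held for the osteoblast factor genes Runx2 (-0.90) and Sp7 (-0.52). Also lower were Ibsp (-4.90) and Dlx5 (-1.84), and the 1 higher marker was Spp1 (2.89), in the authors' deposited table. Bglap was low in both groups, with 2.04 normalized counts in Yoda1 cultures and 7.37 in DMSO cultures, and did not pass. Alpl was lower, with 1.54 normalized counts in Yoda1 cultures and 93.1 in DMSO cultures. Its log2 fold change was -5.91 (standard error 0.67; adjusted p = 1.29e-17 by DESeq2) in the authors' deposited table. Of 7 endothelial markers 4 had a row, with summed levels of 12.9 normalized counts in Yoda1 cultures and 11.02 in DMSO cultures, and of 6 haematopoietic markers 4 had a row, with 29.6 in Yoda1 cultures and 16.4 in DMSO cultures. The adipocyte markers summed to 170.03 in Yoda1 cultures and 128 in DMSO cultures, mostly from Cebpa. The chondrocyte markers summed to 9347 in Yoda1 cultures and 15805 in DMSO cultures, nearly all from Col2a1 and Sox9, both lower with Yoda1, and their part in the values of the RGS genes was not tested. Piezo1, which encodes the channel, stood at a log2 fold change of 0.34 (standard error 0.08; adjusted p = 0.000214 by DESeq2) in the authors' deposited table. The deposited means summed to 19849773 normalized counts, and the depth of single libraries was not analysed.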

How the data were processed

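RNA-seq of MC3T3-E1 cells was described from a single table of the authors' own comparison. The submitters' processing notes name Salmon, DESeq2 and the GRCm39 build and give no version; which formula and filters entered the fit is not stated. Per the file headers, the authors give for each gene a mean normalized count (a signal averaged over the libraries of their fit), a log2 fold change and its error, a Wald score, and a p-value with its Benjamini-Hochberg adjustment. The score and the authors' class were checked over all rows, and the adjustment over the 14653 rows with an adjusted p, with 0 exceptions. The direction, Yoda1 over DMSO, rests on the table's name. Values per library were not analysed here, so the foreseen fits on libraries gave way to the deposited comparison, as planned for that case.

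Genes passed at an adjusted p under 0.05, whatever their fold. The 10 members and all lists were chosen with earlier results of these data known. The genes named are all members, genes that passed in each list (at most 4 where more than 5 passed in 1 direction) and Piezo1; other genes were named after their values were seen, and a few genes are not reported here. Group levels were derived as 2 × mean × ratio / (1 + ratio) for Yoda1 and 2 × mean / (1 + ratio) for DMSO, and 95% intervals from the normal distribution. Promoter windows and gene order came from RefSeq GRCm38.p6, lengths from GENCODE M21, both matched by symbol. Python 3.11.15, pandas 2.3.3, numpy 2.4.6 and scipy 1.17.1 were used, and the recalculation was tested on simulated data.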

Additional observations from a re-analysis of the deposited data

How the results depend on the processing

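Values per gene limit what can be said: no library could be left out, and precision followed the level, with a median standard error of 0.116 at means of at least 100 and 0.754 below. No paired analysis was possible because the table has no columns of libraries that carry replicate numbers. Rgs16, Rgs3 and Rgs4 kept their direction and call under all 7 alternatives, with adjusted p-values of at most 0.0131, 0.0133 and 0.012. The lower members numbered 1 (Rgs4) with no filter, median centring, equal summed counts, a t distribution with 4 degrees of freedom, a test for log2 changes beyond 0.5 in size and the authors' class, and the higher members numbered 4 with equal summed counts. Over all genes, that scaling gave 4138 higher and 2500 lower. Median centring adds 0.01 to every log2 fold change. A stricter filter, at 5 times the lowest tested mean, removed Rgs5, Rgs7 and Rgs8 from the RGS genes, along with other genes of low mean.

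Over the other lists, 26 genes passed with the t distribution (15 higher, 11 lower), 14 in the fold test (9 higher, 5 lower), and 17 were higher in the authors' class. Over all genes, 2990 passed with the t distribution and 1393 in the fold test, of 6518. Genes near 0 turned direction, none of them called: with equal summed counts Rgs11 (0.084), Rgs20 (0.024), Rgs9bp (0.027), Gnb1 (0.033), Grk4 (0.044), Ric8b (0.045) and Ppp1r9b (0.093), and Ppp1r9b (0.0026) with median centring. The cause of these differences was not tested beyond what each alternative changes by construction.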
